A study of Mus musculus with 3 samples.

Results

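The vitamin A genes described here are 8: *Rbp4*, *Stra6*, *Aldh1a1*, *Aldh1a2*, *Crabp1*, *Crabp2*, *Cyp26b1* and *Rarb*, out of 32285 genes counted in each library. They were taken by symbol, and all 8 symbols were found in each of the 3 libraries. *Rbp4* was chosen by its lower level in mutant smooth muscle cells (SMCs), so its values in those cells are a description, and the other 7 were chosen as its partners in the pathway.

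Retinol, the alcohol form of vitamin A, travels bound to retinol binding protein 4 (*Rbp4*) and enters cells through the receptor STRA6 (*Stra6*). Retinal dehydrogenases (*Aldh1a1*, *Aldh1a2*) oxidize retinaldehyde to retinoic acid, cellular binding proteins (*Crabp1*, *Crabp2*) carry it, and CYP26 enzymes (*Cyp26b1*) break it down. Retinoic acid acts through nuclear receptors such as the one encoded by *Rarb*, a gene that is itself switched on by retinoic acid, and the pathway is known for its part in forming the heart's outflow tract and the great arteries.

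The libraries were made from the ascending aorta of male C57BL/6J mice at P45. The first came from 3 pooled WT mice. The second came from 3 pooled *Fbn1*mgR/mgR mice (mgR), which are homozygous for a hypomorphic allele of fibrillin-1 and serve as a model of Marfan syndrome. The third came from 4 pooled *Fbn1*mgR/mgR mice given losartan, a blocker of the angiotensin II type 1 receptor, at 0.6 g/L in the drinking water from P16 (mgR-LOS). The labels do not say whether the mgR mice drank vehicle. Since each condition was a single library, nothing was replicated and no test was run, and differences between conditions and between libraries cannot be told apart.

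The WT, mgR and mgR-LOS libraries held 7858, 10657 and 14663 barcodes, of which 5361, 8076 and 12721 passed the limits on genes and mitochondrial molecules. The median depth of these cells was 13636, 12410.5 and 8334 unique molecular identifiers (UMIs, 1 per captured RNA molecule). *Fbn1*, the targeted gene, was at 361 CPM (UMIs of a gene per 1000000 UMIs counted) in WT, 150.1 CPM in mgR and 117 CPM in mgR-LOS. Between 22 and 46 barcode sequences occurred in both libraries of a pair. Cells were assigned to a class where the summed UMIs of 8 marker genes of that class passed a threshold and those of no other class did. This gave 3672, 3216 and 7985 SMC-gated cells in WT, mgR and mgR-LOS, 1302, 2331 and 3043 fibroblast-gated cells, 107, 213 and 161 endothelial cell (EC)-gated cells, and 11, 29 and 17 mesothelial-gated cells. Each of these classes had UMIs of all 8 of its own markers in every library, and none of the retinoid genes was among the markers. All intervals below are exact 95% intervals that cover counting error alone, not the spread between mice.

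Regulatory DNA is shown for 3 of the genes whose RNA was lower in mgR than in WT fibroblast-gated cells. *Stra6* and *Aldh1a1*, at ratios of 0.346 and 0.768, were lower too, and their DNA is not shown. The RefSeq promoter table (GRCm38.p6) held entries for 7 of the 8 genes, without *Crabp2*. The first 2 sequences are the stretches of the 250 bases before a transcription start that lie outside every annotated exon. *Rbp4* had 2 such windows of 250 bases, before different starts, and only 1 of them is shown. The third is a 30-base piece of the *Rarb* promoter region, inside the first exon of an alternative *Rarb* transcript, with a retinoic acid receptor motif in capitals. All read 5′ to 3′ on the minus strand. *Rbp4* comes from chr19:38124829-38124954, *Cyp26b1* from chr6:84593909-84594060 and *Rarb* from chr14:16575506-16575535.
Rbp4: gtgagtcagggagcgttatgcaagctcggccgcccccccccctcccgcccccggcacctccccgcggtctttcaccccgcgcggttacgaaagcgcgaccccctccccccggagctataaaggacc
Cyp26b1: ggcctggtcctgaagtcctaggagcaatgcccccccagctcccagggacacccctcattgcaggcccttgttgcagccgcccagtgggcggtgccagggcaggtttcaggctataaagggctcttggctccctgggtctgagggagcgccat
Rarb: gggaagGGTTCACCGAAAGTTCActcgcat

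The motif searched was a pair of 6-base half-sites, each spelled AGGTCA or AGTTCA or the same with a first letter G, as in GGTTCA and in GGGTCA, repeated in the same direction with 2 or 5 bases between them, on both strands. The *Rarb* window held 1 match, with 5 bases between the half-sites, which ended 36 bases before the start. The windows of the other 6 genes held none. Of 32817 promoter windows of the mouse genome, 0.0975% held the repeat with 5 bases and 0.268% that with 2 bases. A match of letters is not a measurement of receptor binding.

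*Rbp4* (ENSMUSG00000024990, chromosome 19 from 38116629 to 38125281, minus strand) was carried by SMC-gated and fibroblast-gated cells. In SMC-gated cells its level was 269 CPM (265 to 274) for WT, 52.2 CPM (50.2 to 54.3) for mgR and, for mgR-LOS, 54.4 CPM (52.7 to 56.2). The WT library thus stood alone, and the 2 mutant libraries lay next to each other. Divided by WT, the mgR level gave a ratio of 0.194 (0.186 to 0.202), the value by which the gene was chosen, and mgR-LOS over mgR gave 1.04 (0.991 to 1.10). These ratios share the mgR library, so an error of that library enters both. Against WT, the level in mgR-LOS was still at a ratio of 0.202 (0.195 to 0.209).

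In fibroblast-gated cells *Rbp4* was at 585 CPM (573 to 598) in WT, 239 CPM (234 to 245) in mgR and, with losartan, 367 CPM (359 to 374) in mgR-LOS. All 3 levels were higher than those of SMC-gated cells of the same library. These levels gave ratios of 0.409 (0.396 to 0.422) for mgR over WT and 1.53 (1.48 to 1.58) for mgR-LOS over mgR. The second ratio was 1.38 after thinning and 1.40 as a mean over cells. The losartan library lay between the other 2 in fibroblast-gated cells, at a ratio over WT of 0.627 (0.608 to 0.645), whereas in SMC-gated cells it lay beside mgR. In the main setting the intervals of the losartan ratio in SMC-gated and in fibroblast-gated cells did not overlap, which compares these libraries and not the conditions. In subsets described below some did overlap. They were 1.01 to 1.25 in SMC-gated cells without a *Wif1* UMI and 1.22 to 1.38 in fibroblast-gated cells with an *Fmo2* UMI. Cells of these classes share a library, so they are not independent of each other. Globin genes, markers of red cells, summed to 618, 12.4 and 245 CPM in fibroblast-gated cells of WT, mgR and mgR-LOS, and their part in the *Rbp4* ratios was not tested. With globin, mitochondrial and ribosomal protein genes taken out of the totals, the ratios of *Rbp4* were nearly the same. That step changes only the divisor, so it is no check on the globin difference.

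The other classes held few *Rbp4* UMIs. EC-gated cells had 8, 1 and 4 in WT, mgR and mgR-LOS, and mesothelial-gated cells had 3, 3 and 0. Immune-gated cells were at 5.38, 3.93 and 3.85 CPM in WT, mgR and mgR-LOS, a level at which free RNA in the droplets cannot be told apart from expression. The EC-gated levels of 9.55, 0.590 and 3.47 CPM were of that order. SMC-gated cells held 59.6% of all *Rbp4* UMIs of the WT library but 23.4% in mgR and 26.6% in mgR-LOS. Fibroblast-gated cells held 36.4% in WT, 65.7% in mgR and 63.2% in mgR-LOS, so SMC-gated cells held the larger share in WT and fibroblast-gated cells in the 2 mutant libraries. These shares depend on how many cells of each class were captured as well as on their level.

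**Figure D1:**
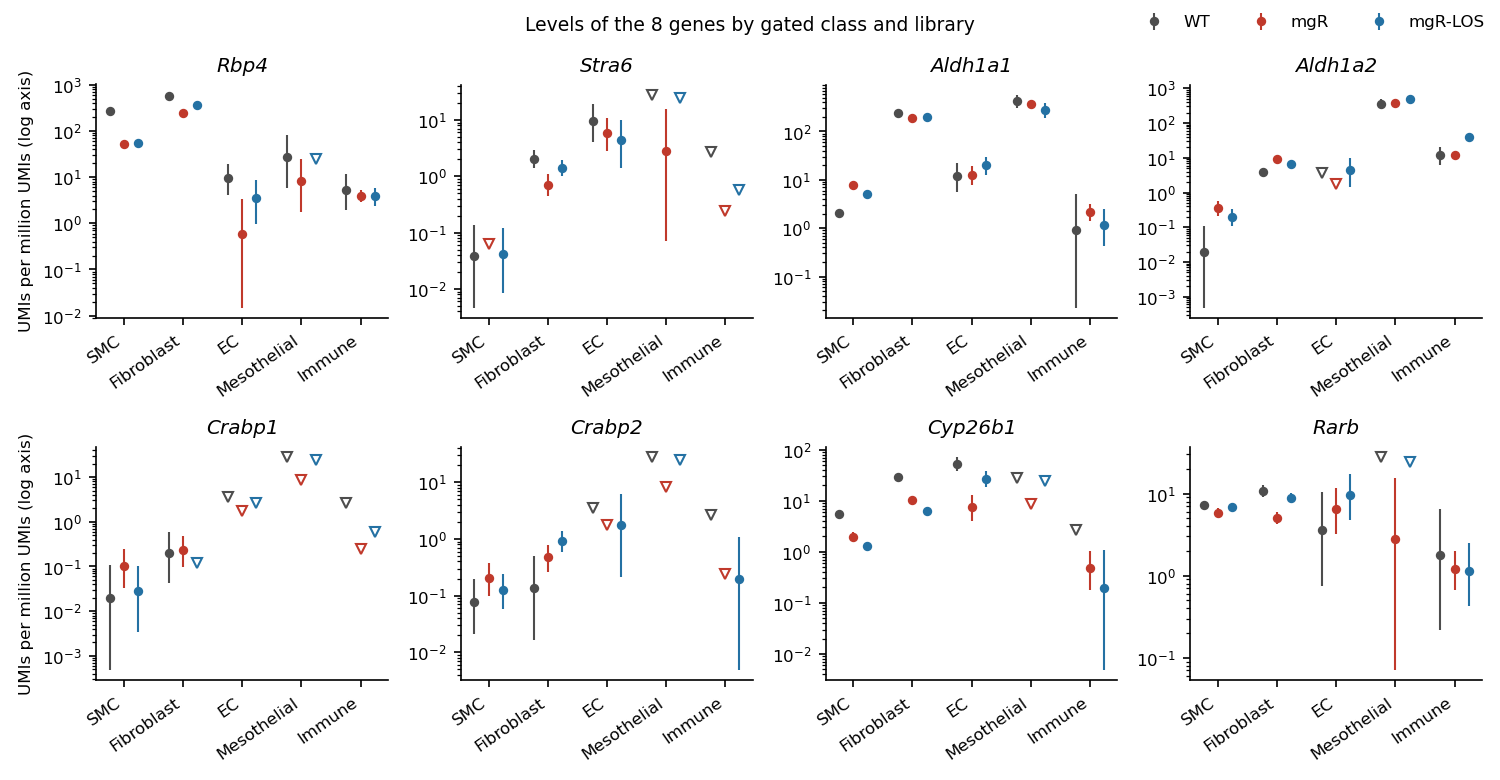
Level of each of the 8 genes (CPM of the class, log axis) in 5 gated classes of the WT, mgR and mgR-LOS libraries. Points are levels of summed UMIs, bars are exact 95% Poisson intervals, and open triangles mark the limit set by a count of 0 (3 counts). *Rbp4* is at 269 CPM in WT and 52.2 CPM in mgR SMC-gated cells, and *Aldh1a2* lies highest in mesothelial-gated cells, between 349 and 496 CPM.

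The lower level in mgR SMC-gated cells came with fewer cells that had any *Rbp4* UMI and with fewer UMIs in those cells. Each cell was thinned to 3000 UMIs to make depths equal, which left out 115, 131 and 257 shallower SMC-gated cells of WT, mgR and mgR-LOS. An *Rbp4* UMI was then found in 40.3% of WT cells (38.7 to 42.0%), 11.2% of mgR cells (10.2 to 12.4%) and 12.03% of mgR-LOS cells (11.3 to 12.8%). Without thinning the shares were 66.7%, 30.6% and 24.7%, and the last of these is also that of the shallowest library. Among cells with a UMI the mean was 2.03 UMIs in WT, 1.41 in mgR and 1.43 in mgR-LOS. Cells with 3 to 9 UMIs made up 10.5% of WT, 0.940% of mgR and 1.29% of mgR-LOS SMC-gated cells. In immune-gated cells thinned alike, 1.74% of WT, 0.886% of mgR and 1.56% of mgR-LOS cells had a UMI, and 1 mgR immune-gated cell held 13 of the 49 *Rbp4* UMIs of its class before thinning. Before thinning, the median depth was 14359, 15053.5 and 8529 UMIs in SMC-gated cells and 8449.5, 7833 and 6400 UMIs in immune-gated cells of WT, mgR and mgR-LOS.

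In fibroblast-gated cells the share with an *Rbp4* UMI at 3000 UMIs was 41.5% in WT, 26.2% in mgR and 35.5% in mgR-LOS. In WT, 5.38% of fibroblast-gated cells had 10 or more UMIs against 0.112% of SMC-gated cells. In mgR and mgR-LOS, 1.03% and 1.60% of fibroblast-gated cells had 10 or more. The 10% of fibroblast-gated cells with most UMIs held 59.1%, 69.7% and 60.4% of them in WT, mgR and mgR-LOS. The top 10% of SMC-gated cells held 49.3%, 92.2% and 88.2%. Only 11.2% of mgR and 12.03% of mgR-LOS SMC-gated cells had a UMI at 3000 UMIs, against 40.3% of WT. In the mutant libraries the top 10% therefore had to hold most UMIs. These SMC-gated shares thus cannot show whether *Rbp4* was more concentrated in few cells there than in WT.

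**Figure D2:**
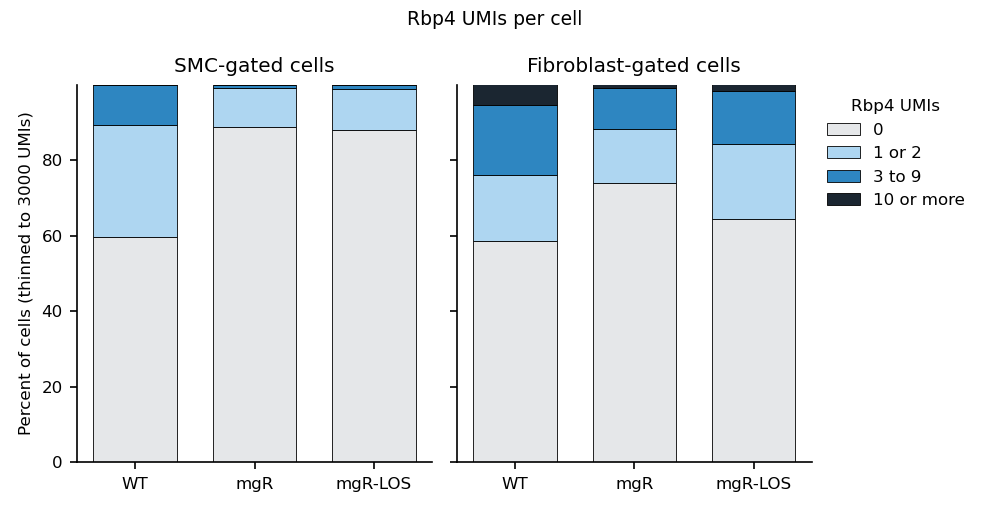
Percent of SMC-gated (left) and fibroblast-gated (right) cells with 0, 1 or 2, 3 to 9, and 10 or more *Rbp4* UMIs after thinning each cell to 3000 UMIs, for the WT, mgR and mgR-LOS libraries. Cells with no UMI make up 59.7% of WT, 88.8% of mgR and 88.0% of mgR-LOS SMC-gated cells.

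*Wif1*, a gene for a secreted Wnt inhibitor, was at 172.8 CPM in WT, 29.0 CPM in mgR and 25.4 CPM in mgR-LOS SMC-gated cells. Cells with a *Wif1* UMI at 3000 UMIs made up 34.0% of WT but 7.002% of mgR and 6.96% of mgR-LOS SMC-gated cells. *Rbp4* was lower in mgR with and without a *Wif1* UMI at that depth. Among cells with a *Wif1* UMI it was at 301 CPM in WT, 43.2 CPM in mgR and 50.2 CPM in mgR-LOS, a ratio of mgR over WT of 0.144 (0.0951 to 0.209). Among cells without one it was at 251, 52.4 and 58.8 CPM, a ratio of 0.209 (0.188 to 0.232). The difference of *Rbp4* between the WT and mgR libraries was thus present in both subsets. Together these are all SMC-gated cells of at least 3000 UMIs. Without thinning, 67.5% of WT, 23.5% of mgR and 15.8% of mgR-LOS SMC-gated cells had a *Wif1* UMI. The subset without one at 3000 UMIs thus also holds cells that carry *Wif1*. As the level of *Wif1* differed too, the split does not pick out like cells in each library. *Wif1* was taken because it had been named beside *Rbp4* for a group of SMCs in these data. The mgR over WT contrast also chose *Rbp4*, so both ratios are descriptions.

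Within the fibroblast-gated cells, *Rbp4* went with a recognizable set of genes. The genes with the highest correlation over cells in every library, a description over cells that share a library and depth, were *Cst3* (smallest r of the 3 libraries 0.52), *Fmo2* (0.49), *Lamc3* (0.48) and *Smoc1* (0.46). *Vcan*, *Plat* and *Fndc1* ran opposite to it, with r between -0.40 and -0.34. Cells with an *Fmo2* UMI, which encodes a flavin monooxygenase, made up 46.8% of WT, 55.1% of mgR and 61.9% of mgR-LOS fibroblast-gated cells thinned to 3000 UMIs. In them *Rbp4* was at 1158 CPM in WT, 431 CPM in mgR and 559 CPM in mgR-LOS, a ratio of mgR over WT of 0.372 (0.348 to 0.398). In cells without one it was at 212, 53.7 and 105 CPM, a ratio of 0.253 (0.210 to 0.304). *Rbp4* was therefore lower in mgR in both subsets. *Fmo2* itself was at 540, 697 and 988 CPM in WT, mgR and mgR-LOS fibroblast-gated cells, so the share of cells with a UMI moves with its level and does not measure the size of a subset. The ratio of mgR-LOS over mgR was 1.30 (1.22 to 1.38) with *Fmo2* and 1.96 (1.62 to 2.37) without. *Fmo2* and this split were chosen after the values had been seen.

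**Figure D3:**
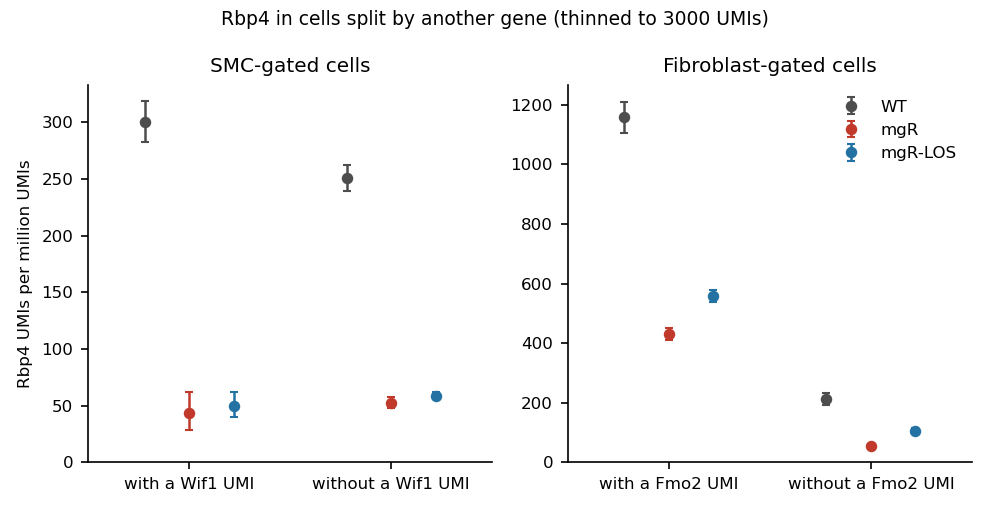
*Rbp4* level (CPM, linear axis from 0) in SMC-gated cells with and without a *Wif1* UMI (left) and in fibroblast-gated cells with and without an *Fmo2* UMI (right), after thinning to 3000 UMIs per cell. Points are levels in the WT, mgR and mgR-LOS libraries and bars are exact 95% Poisson intervals. WT lies above mgR in all 4 subsets, for example at 1158 against 431 CPM in fibroblast-gated cells with *Fmo2*.

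In SMC-gated cells no gene followed *Rbp4* as closely. The 8 most alike, *Abcc9*, *Col3a1*, *Col1a2*, *Sparc*, *Sfrp2*, *Cst3*, *Col1a1* and *Lama2*, had a smallest r of 0.10 to 0.14 over the 3 libraries. *Col18a1*, *Des* and *Sparcl1* ran opposite, with a largest r of -0.11 to -0.09. Correlations of this size in sparse counts are weak. In level, *Lama2* was at 28.7, 15.9 and 15.1 CPM and *Sfrp2* at 221, 157 and 176 CPM in WT, mgR and mgR-LOS, so both mutant libraries lay below WT for these genes as for *Rbp4*. *Abcc9* was at 81.6, 43.0 and 73.3 CPM. The ratio of mgR over WT was between 1.06 and 1.44 for the other 5.

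*Stra6*, the receptor that takes up retinol from its carrier, was rare. It is encoded on chromosome 9 (ENSMUSG00000032327, 58063788 to 58153996). The 3 libraries held 41, 36 and 48 *Stra6* UMIs among all cells kept in WT, mgR and mgR-LOS. Fibroblast-gated cells had 30, 21 and 36 of them, at 2.05, 0.712 and 1.43 CPM. In them mgR over WT gave 0.346 (0.188 to 0.625) and mgR-LOS over mgR gave 2.004 (1.14 to 3.61), but after thinning to 3000 UMIs they were 0.630 and 0.928, and the second was 1.08 with the stricter gate. Thinned ratios come from a single random draw, which leaves few *Stra6* UMIs. In a separate draw at that depth, 0.134% (0.0276 to 0.391%) of mgR and 0.399% (0.199 to 0.713%) of mgR-LOS fibroblast-gated cells had one. The order was the reverse at a lower depth, at 0.172% and 0.0657%, and the same at a higher one, at 0.373% and 0.585%. Without thinning the shares were 0.815% and 0.657%. The 5 mgR-LOS fibroblast-gated cells with most *Stra6* UMIs held 18 of the 36. EC-gated cells had 8, 10 and 5 UMIs at 9.55, 5.90 and 4.34 CPM, with intervals that overlapped. SMC-gated cells had 2, 0 and 3 UMIs in 3672, 3216 and 7985 cells. The 0 in mgR allows a level of up to 0.0621 CPM. The carrier gene was thus abundant in SMC-gated and fibroblast-gated cells, and its receptor was hardly detected in SMC-gated cells at this depth.

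*Aldh1a1* and *Aldh1a2* encode enzymes that make retinoic acid. Of the 4 main classes, mesothelial-gated cells had the highest level of both in every library, and fibroblast-gated cells, being more numerous, held more UMIs of both. *Aldh1a1* (ENSMUSG00000053279) lies on chromosome 19 between 20492715 and 20643465. It was at 245 CPM (237 to 253) in WT, 188 CPM (183 to 193) in mgR and, with losartan, 198 CPM (193 to 204) in mgR-LOS fibroblast-gated cells, which held 91.6%, 82.0% and 80.8% of its UMIs. The WT level was the highest, with a ratio of mgR over WT of 0.768 (0.737 to 0.802), within the 1.5-fold limit used below. Mesothelial-gated cells were at 423, 363 and 276 CPM, from 46, 129 and 34 UMIs, with intervals that overlapped for all 3 libraries. In fibroblast-gated cells *Aldh1a1* went with *Pdlim3*, *Prelp* and *Dkk3* (smallest r 0.33, 0.33 and 0.30), genes other than those that went with *Rbp4*.

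SMC-gated cells had little *Aldh1a1*, at 2.04 CPM (1.67 to 2.47) in WT, 7.74 CPM (6.98 to 8.57) in mgR and, with losartan, 5.11 CPM (4.60 to 5.66) in mgR-LOS. The mgR level was 3.79 times (3.05 to 4.75) that of WT, and mgR-LOS over mgR gave 0.660 (0.570 to 0.765). With a mitochondrial limit of 5% the first was 2.40, and with a stricter gate the first was 2.68 and the second 0.840. The second was also within 1.5-fold, at 0.896, when barcodes over several panels were kept, and at 0.673 with reduced totals. At 3000 UMIs a UMI was found in 0.618% of WT, 2.40% of mgR and 1.29% of mgR-LOS SMC-gated cells, against 0.870% (0.0220 to 4.75%), 0.443% (0.163 to 0.961%) and 0.469% (0.0968 to 1.36%) of immune-gated cells. The WT immune-gated share is 1 cell of 115, too few to set a background for WT. After thinning, most of these UMIs lay in cells with a UMI of *Lum* or *Dcn*, which are among the fibroblast markers. *Dcn*, *Lum*, *Fst*, *Cp* and *Serpinf1* were the genes most alike over SMC-gated cells, with a smallest r of 0.17 to 0.24. The fibroblast markers, all 8 of which were detected in SMC-gated cells of every library, summed to 1349 CPM in WT, 1935 CPM in mgR and 1364 CPM in mgR-LOS, most of it *Col1a1*. After thinning, 23 WT, 56 mgR and 90 mgR-LOS *Aldh1a1* UMIs lay in SMC-gated cells with a *Lum* or *Dcn* UMI, and 7, 24 and 31 in those without. Among cells with one, *Aldh1a1* was at 16.8, 34.0 and 14.5 CPM, and among the others at 0.752, 3.15 and 1.83 CPM. For mgR over WT this gave 2.02 (1.22 to 3.44) with these genes and 4.19 (1.75 to 11.5) without. Whether these barcodes hold RNA of 2 cells was not tested. The study also names *Dcn* and *Lum* as raised in a cluster of SMCs found only in the mutant aorta. Whether these cells belong to it was not tested.

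*Aldh1a2* (ENSMUSG00000013584, chromosome 9 from 71215789 to 71296243) was also highest in mesothelial-gated cells, which held 34.9%, 19.7% and 11.6% of its UMIs in WT, mgR and mgR-LOS against 52.3%, 41.4% and 31.8% in fibroblast-gated cells. Its mesothelial level was 349 CPM (247 to 480) in WT, 368 CPM (308 to 437) in mgR and, with losartan, 496 CPM (379 to 637) in mgR-LOS, from 38, 131 and 61 UMIs in 9 of 11, 24 of 29 and 14 of 17 cells. The 3 intervals overlapped. The highest level in the other gated classes was 39.4 CPM, in mgR-LOS immune-gated cells. In fibroblast-gated cells it was at 3.903 CPM in WT, 9.32 CPM in mgR and 6.66 CPM in mgR-LOS, with ratios of 2.39 (1.79 to 3.23) for mgR over WT and 0.714 (0.586 to 0.869) for mgR-LOS over mgR. The WT value rested on 57 UMIs in 29 cells, and mgR over WT gave 1.28 after thinning to 3000 UMIs, in a single random draw. In a separate draw at that depth, 1.08% (0.574 to 1.83%) of WT and 2.41% (1.82 to 3.13%) of mgR fibroblast-gated cells had an *Aldh1a2* UMI. *C3*, *Adm* and *Sned1* were the genes most alike over fibroblast-gated cells, with a smallest r of 0.11 to 0.15. Summed mesothelial markers were at 2.94, 10.7 and 8.91 CPM in fibroblast-gated cells of WT, mgR and mgR-LOS, and their part in the *Aldh1a2* ratios was not tested. SMC-gated cells had 1, 17 and 14 UMIs, and EC-gated cells 0, 0 and 5.

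The cellular retinoic acid binding proteins were nearly absent from these counts. *Crabp1* (chromosome 9 from 54764748 to 54773110) had 4, 17 and 6 UMIs among all cells kept in WT, mgR and mgR-LOS. *Crabp2* (chromosome 3 from 87948666 to 87953376), whose product hands retinoic acid to its receptors, had 7, 48 and 35. A single mgR barcode that passed the threshold of no class held 24 of the 48 *Crabp2* UMIs of that library, and 1 mgR-LOS fibroblast-gated cell held 11 of the 23 found in that class. The 5 *Crabp1* UMIs of mgR SMC-gated cells came from 1 cell. Schwann-gated cells, the glia of nerves, had 0, 5 and 4 *Crabp1* UMIs in 9, 19 and 30 cells. Neither gene reached the minimum for a ratio in any of the 4 main classes.

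*Cyp26b1*, which clears retinoic acid (ENSMUSG00000063415, chromosome 6 from 84571414 to 84593908, minus strand), was lower in mgR than in WT in SMC-gated, fibroblast-gated and EC-gated cells. In fibroblast-gated cells it was at 29.2 CPM (26.5 to 32.1) in WT, 10.5 CPM (9.40 to 11.8) in mgR and, with losartan, 6.30 CPM (5.36 to 7.36) in mgR-LOS. WT stood well above both mutant libraries, and mgR-LOS lay below mgR. The ratios were 0.360 (0.310 to 0.418) for mgR over WT and 0.598 (0.491 to 0.726) for mgR-LOS over mgR, so the losartan library was farther from WT than the mgR library was, at a ratio over WT of 0.215 (0.178 to 0.259). One mgR cell held 39 of the 311 UMIs. Without the cell with most UMIs in each library the 2 ratios were 0.330 and 0.632. The lower level in mgR-LOS did not hold with a stricter fibroblast threshold, where the ratio over mgR was 0.997. After thinning, in a single random draw, the ratio was 0.950. It was within 1.5-fold with the 5% mitochondrial limit (0.684) and as a mean over cells (0.726). In a separate draw at 3000 UMIs, 1.92% of mgR and 1.31% of mgR-LOS fibroblast-gated cells had a *Cyp26b1* UMI, with intervals that overlapped.

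In SMC-gated cells *Cyp26b1* was at 5.39 CPM in WT, 1.97 CPM in mgR and 1.28 CPM in mgR-LOS, from 280, 95 and 92 UMIs. Here mgR over WT gave 0.365 (0.286 to 0.462), close to that in fibroblast-gated cells. The ratio of mgR-LOS over mgR was 0.654 (0.485 to 0.880), but 1 mgR-LOS cell held 25 of the 92 UMIs. Without the cell with most UMIs in each library the ratio was 0.502 (0.361 to 0.697). It was 1.05 when cells above 5% mitochondrial UMIs were left out and 0.725 with barcodes over several panels kept. After thinning it was 0.912, while in a separate draw 0.519% of mgR and 0.298% of mgR-LOS SMC-gated cells had a UMI. In EC-gated cells the level was 52.5 CPM in WT, 7.67 CPM in mgR and 26.9 CPM in mgR-LOS, a ratio of mgR over WT of 0.146 (0.0722 to 0.276), which was 0.379 with the 5% mitochondrial limit and 0.295 with the stricter gate. Those values rested on 44, 13 and 31 UMIs in 14 of 107, 4 of 213 and 14 of 161 cells. Mesothelial-gated cells had none, which allows up to 27.6, 8.44 and 24.4 CPM in WT, mgR and mgR-LOS.

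*Rarb* (ENSMUSG00000017491, chromosome 14 from 16430839 to 16819156, minus strand), whose promoter piece with the repeat is printed above, was found in SMC-gated and fibroblast-gated cells at similar levels. In fibroblast-gated cells it was at 10.8 CPM (9.13 to 12.6) in WT, 5.08 CPM (4.30 to 5.96) in mgR and, with losartan, 8.87 CPM (7.75 to 10.1) in mgR-LOS. The mgR library was the lowest, and the intervals of WT and mgR-LOS overlapped. The ratios were 0.473 (0.376 to 0.595) for mgR over WT and 1.75 (1.41 to 2.16) for mgR-LOS over mgR. In SMC-gated cells the same order was seen with smaller distances, at 7.22, 5.88 and 6.90 CPM and ratios of 0.814 (0.696 to 0.953) and 1.17 (1.01 to 1.36). EC-gated cells were in that range too, at 3.58, 6.49 and 9.54 CPM in WT, mgR and mgR-LOS. Those levels rested on 3, 11 and 11 UMIs, too few for a ratio. The 3′ counts of *Rarb* do not show which promoter was used.

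Counted by a limit of 1.5-fold among genes with at least 50 UMIs over both libraries, 3 of the 4 members tested in SMC-gated cells lay past it between mgR and WT, against 16.7% of 12635 genes. *Rbp4* and *Cyp26b1* were lower and *Aldh1a1* higher. *Rbp4* chose this contrast, so nothing is read from that count. In fibroblast-gated cells 5 of 6 members lay past it, against 16.4% of 12477 genes. *Rbp4*, *Stra6*, *Cyp26b1* and *Rarb* were lower and *Aldh1a2* higher, the median ratio of the 6 was 0.441, and that of all genes tested was 0.990. The 6 members were chosen with these data known. In EC-gated cells 1 of 1 member tested, *Cyp26b1*, lay past it, against 16.1% of 6396 genes, and in mesothelial-gated cells 0 of 2, against 23.6% of 1486 genes.

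Between mgR-LOS and mgR, 2 of 4 members lay past the limit in SMC-gated cells, *Aldh1a1* and *Cyp26b1*, both lower, against 14.6% of 13045 genes. In fibroblast-gated cells 4 of 6 did, against 11.5% of 12764 genes. *Rbp4*, *Stra6* and *Rarb* were higher and *Cyp26b1* lower in mgR-LOS, and the median ratio of the 6 was 1.29, beside 1.01 for all genes. In EC-gated cells no member had enough UMIs (14.2% of 6841 genes lay past the limit), and in mesothelial-gated cells 0 of 2 did, against 31% of 1569 genes. In the main setting *Rbp4*, *Stra6* and *Rarb* of fibroblast-gated cells, lower in mgR than in WT, were higher in mgR-LOS than in mgR. After thinning to 3000 UMIs, mgR-LOS over mgR was 1.38 for *Rbp4* and 0.928 for *Stra6*, the latter from few UMIs in a single random draw. With the stricter gate it was 1.08 for *Stra6*. For *Rarb* it stayed between 1.67 and 2.75 in the alternatives. The mgR library enters both ratios. *Cyp26b1* did not follow that order.

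**Figure D4:**
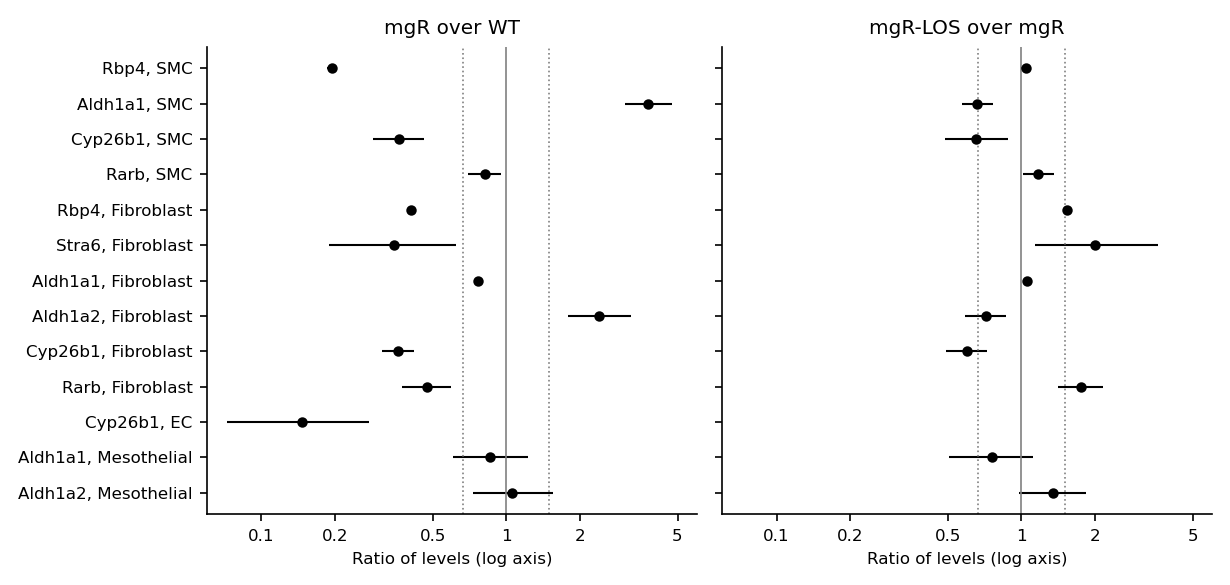
Ratio of levels (log axis) of mgR over WT (left) and of mgR-LOS over mgR (right) for each member and gated class with at least 50 UMIs over both libraries. Points are ratios of CPM, bars are exact 95% conditional binomial intervals, the solid line marks 1 and dotted lines mark 1.5-fold. *Cyp26b1* lies left of the dotted line for mgR over WT in SMC-gated, fibroblast-gated and EC-gated cells, at 0.365, 0.360 and 0.146.

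A list of 45 other genes of vitamin A transport, oxidation, clearance and response gave the surroundings of the 8 members. In SMC-gated cells 27 of them had enough UMIs for mgR over WT, 2 lay past the limit as higher and 2 as lower, beside 8.80% and 7.88% of all genes, and the median ratio was 0.913 against 0.985 for all genes. The higher ones were *Rarres1*, a retinoid-responsive gene, at 7.22 CPM in WT and 27.5 CPM in mgR, and the nuclear receptor gene *Nr2f2*, at 44.6 and 71.7 CPM. The lower ones were the oxidoreductase gene *Dhrs9*, at 1.46 and 0.414 CPM, and the retinoic acid receptor gene *Rarg*, at 21.1 and 14.0 CPM. For mgR-LOS over mgR, 27 genes were tested in SMC-gated cells. Of these 2 lay past the limit as higher (*Rarg* and *Meis2*) and 1 as lower (*Rarres1*), beside 9.34% and 5.27% of all genes. *Rarg* was at 22.7 CPM in mgR-LOS, a ratio over mgR of 1.63 (1.49 to 1.78).

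In fibroblast-gated cells 31 genes of the list were tested for mgR over WT. Of these 7 were past the limit as higher (*Dgat1*, *Rdh10*, *Adh1*, *Fabp5*, *Rarres1*, *Hoxa5* and *Nr2f2*) and 6 as lower (*Lrat*, *Rdh5*, *Adh7*, *Aldh1a7*, *Cyp26a1* and *Rarg*), beside 8.41% higher and 7.99% lower of all genes. The median ratio was 0.956. *Cyp26a1*, the relative of *Cyp26b1*, was at 37.0 CPM in WT, 8.34 CPM in mgR and 2.97 CPM in mgR-LOS, with ratios of 0.225 (0.193 to 0.263) and 0.356 (0.271 to 0.463). *Cyp26b1* of fibroblast-gated cells had the same order from high to low, except that mgR and mgR-LOS lay together in the thinned ratio and with the stricter gate. *Rdh10*, which makes retinaldehyde from retinol, was at 8.35 CPM in WT, 21.9 CPM in mgR and 10.5 CPM in mgR-LOS, and *Lrat*, which stores retinol as an ester, was at 6.37, 3.46 and 9.71 CPM. For mgR-LOS over mgR, 32 genes were tested, 2 lay past the limit as higher (*Lrat* and *Adh1*) and 3 as lower (*Rdh10*, *Cyp26a1* and *Rarres1*), beside 6.31% and 5.21% of all genes.

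In EC-gated cells the list gave 2 higher (*Rarres2*, *Nr2f2*) and 4 lower genes (*Rbp7*, *Dhrs3*, *Fabp5*, *Rara*) of 19 for mgR over WT, beside 11.4% and 4.66% of all genes. *Rbp7*, a retinol binding protein of endothelium, was at 191 CPM in WT, 121 CPM in mgR and 195 CPM in mgR-LOS, and *Fabp5*, a fatty acid and retinoic acid binding protein, at 522, 294 and 605 CPM. For mgR-LOS over mgR, 7 of 20 genes were higher, among them these *Rbp7* and *Fabp5*, and 1, *Rdh14*, was lower, beside 6.48% and 7.73% of all genes. In mesothelial-gated cells 8 genes were tested for mgR over WT. Of these 1 was higher (*Lrp2*) and 1 lower (*Rarres2*), beside 16.3% and 7.34% of all genes. *Lrp2*, a receptor that takes up retinol with its carrier in other tissues, was at 147 CPM in WT, 231 CPM in mgR and 138 CPM in mgR-LOS, and *Rarres2* at 5592, 3502 and 2893 CPM. For mgR-LOS over mgR, 0 of 8 were higher and 2 lower (*Lrp2* and *Dhrs4*), beside 11.2% and 19.8% of all genes. These levels rest on 11, 29 and 17 cells.

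**Figure D5:**
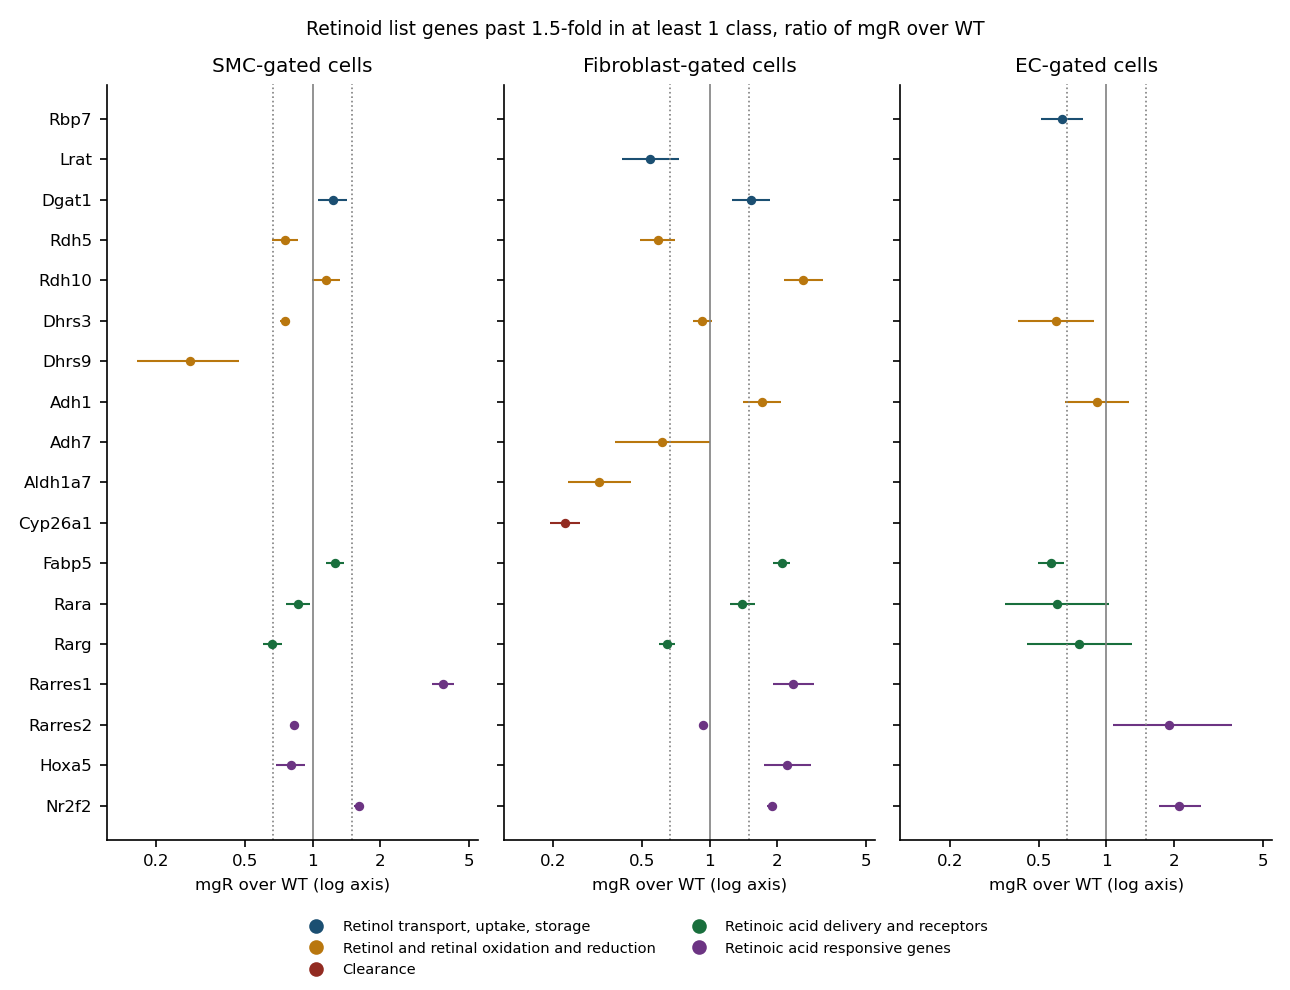
Ratio of mgR over WT (log axis) for the genes of the retinoid list that lay past 1.5-fold in SMC-gated, fibroblast-gated or EC-gated cells, each drawn in every class where it had at least 50 UMIs over both libraries and colored by role. Points are ratios of CPM, bars are exact 95% conditional binomial intervals, and dotted lines mark 1.5-fold. In fibroblast-gated cells *Cyp26a1* lies lowest at 0.225 and *Rdh10* highest at 2.62.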

How the data were processed

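Per the file headers and values, the deposited matrices hold raw UMI counts (whole numbers, not normalized), made by the authors from 10x Genomics 3′ libraries of minced and enzymatically digested aortas. The labels name Cell Ranger 6.0.1 and mm10 for every library, and the matrix headers give Cell Ranger 5.0.1 for WT and mgR and 6.0.1 for mgR-LOS. Counts were read with pandas 2.3.3, numpy 2.4.6 and scipy 1.17.1. Following the study's methods, a barcode was kept if it had 600 to 5000 genes and no more than 10% of its UMIs from mitochondrial genes. A cell entered a class when the summed UMIs of its 8 marker genes reached, per 10000 UMIs of the cell, 120 (SMC), 80 (fibroblast), 20 (EC), 12 (mesothelial), 20 (immune) or 12 (Schwann), thresholds set after the marker levels had been seen. Barcodes over 2 or more thresholds (70, 349 and 538 in WT, mgR and mgR-LOS) were left out, which stood in for a doublet caller, and 66, 408 and 209 passed none. UMIs were summed per class and library and divided by all UMIs of the class (CPM). Intervals were exact Poisson for levels, exact binomial (Clopper-Pearson) for shares and exact conditional binomial for ratios. Levels and ratios were computed for the named genes, and the shares past 1.5-fold over all genes with enough UMIs. The ratio code was tested on simulated data. The limit given by a count of 0 is 3 counts. Likeness of genes was Pearson's r over cells of log(1 + UMIs per 10000), among genes in at least 5% of the cells of each library. It was the rule for the genes named as alike, planned for *Rbp4* in SMC-gated cells and for the class with most UMIs of *Aldh1a1*, *Aldh1a2*, *Cyp26b1* and *Crabp1* (summed UMIs, not level), and added later for the rest. *Crabp1* had too few UMIs for it. The other named genes are the members, the list of 45, the markers, *Fbn1* and *Wif1*. The members and lists were chosen with earlier results of these data known. Gene positions are from GENCODE mouse release 21 (GRCm38) and figures were drawn with matplotlib 3.10.9.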

Additional observations from a re-analysis of the deposited data

Results flagged for a closer look

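*Aldh1a1* had ratios on opposite sides of 1 in SMC-gated and fibroblast-gated cells. For mgR over WT it was at a ratio of 3.79 in SMC-gated and 0.768 in fibroblast-gated cells, and the ratio of mgR-LOS over mgR was 0.660 in SMC-gated and 1.05 in fibroblast-gated cells. The third was 0.840 with the stricter gate and 0.896 with barcodes over several panels kept, and the fourth was 0.995 as a mean over cells, where both classes lay below 1. No interval of these 4 ratios held 1 in the main setting, and the difference between the classes was not tested, since each condition has 1 library.

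*Aldh1a2* was also found in immune-gated cells, outside the 4 classes compared. Its level was 11.7 CPM (6.21 to 19.9) in WT, 12.3 CPM (10.4 to 14.4) in mgR and, with losartan, 39.4 CPM (34.2 to 45.2) in mgR-LOS. The losartan library stood above the other 2, with a ratio over mgR of 3.21 (2.59 to 3.99). The UMIs lay in 6 of 124, 74 of 1511 and 69 of 738 cells, and the 1 cell with most UMIs of the mgR-LOS library held 9 of 205. Over immune-gated cells *Aldh1a2* went with *Lyz1*, *Ear2*, *Plxnd1* and *Retnla*, genes known from some macrophages and monocytes, with a smallest r of 0.38 to 0.47, and *Retnla* itself was at 1769, 1238 and 3431 CPM in WT, mgR and mgR-LOS. This class and these genes were examined after the values had been seen.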

How the results depend on the processing

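No paired analysis was possible because each condition has 1 library, and for the same reason no library could be left out. Of 87 alternative values of the 9 member ratios past 1.5-fold for mgR over WT, 86 stayed past it. The 9 include *Rbp4* in SMC-gated cells, the value by which that gene was chosen. The exception was *Aldh1a2* in fibroblast-gated cells, at 1.28 after thinning. The minimum of 50 UMIs was not applied to the alternative values. *Cyp26b1* in EC-gated cells fell below it with the 5% limit, the stricter gate and thinning, and *Stra6* in fibroblast-gated cells with thinning. Those values still enter the numbers given here. Thinned ratios come from a single random draw. In a separate draw at 3000 UMIs, 1.08% of WT and 2.41% of mgR fibroblast-gated cells had an *Aldh1a2* UMI. Of 58 values of the 6 ratios for mgR-LOS over mgR, 43 stayed past it. The 2 that reversed were these: *Cyp26b1* in SMC-gated cells was at 1.05 with a mitochondrial limit of 5%, and *Stra6* in fibroblast-gated cells at 0.928 after thinning. That *Stra6* value rests on few UMIs. In the separate draw, 0.134% of mgR and 0.399% of mgR-LOS fibroblast-gated cells had a *Stra6* UMI, with intervals that overlapped. Other depths gave either order, so these shares do not settle the direction.

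The 5% mitochondrial limit kept 601 of 3672 WT, 1023 of 3216 mgR and 3203 of 7985 mgR-LOS SMC-gated cells. The share kept thus differed between libraries, and its part in the ratios was not tested. The ratio of *Rbp4* in SMC-gated cells, mgR over WT, was 0.272 with that limit and 0.180 with the stricter gate. It was 0.205 with barcodes over several panels kept, 0.144 with a *Wif1* UMI and 0.209 without. For mgR-LOS over mgR it was 0.991 with the 5% limit, 1.11 as the mean of per-cell CPM, 1.16 with *Wif1* and 1.12 without. The ratio of mgR over WT kept its direction in all alternatives. That is a description, since this contrast chose the gene and the alternatives reuse the same cells. In fibroblast-gated cells the *Rbp4* ratio of mgR-LOS over mgR ranged from 1.30 to 1.96. Of 48 alternative *Rbp4* levels, 27 lay outside the interval of the main setting. In SMC-gated cells they ran from 240 to 333 CPM in WT, 48.3 to 65.2 CPM in mgR and 52.3 to 67.0 CPM in mgR-LOS. In fibroblast-gated cells they ran from 544 to 730, 228 to 292 and 355 to 446 CPM.

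Counts of members past the limit are listed where they moved by more than 1.5-fold from the main setting, or to or from 0. Smaller moves are left out. With the 5% limit, for example, fibroblast-gated cells had a count of 4 for mgR over WT and 3 for mgR-LOS over mgR. The larger moves were these. In SMC-gated cells for mgR-LOS over mgR the count was 1 with the 5% limit, the stricter gate, reduced totals, thinning or a minimum of 200 UMIs, and 0 with several panels allowed or a fold of 2. In fibroblast-gated cells for mgR-LOS over mgR it was 2 with the stricter gate or per-cell means and 1 with thinning or a fold of 2, and for mgR over WT it was 3 with thinning. In EC-gated cells for mgR over WT it was 0 with the 5% limit, the stricter gate, thinning or 200 UMIs, and 2 with gene limits of 200 and 7000, and for mgR-LOS over mgR 1 with those limits or with several panels allowed. In mesothelial-gated cells for mgR over WT it was 1 with per-cell means. Thinning leaves fewer UMIs, so fewer genes reach the minimum. Leaving out shared barcodes, or the barcode with most UMIs of a gene, was added after seeing the data and moved no ratio outside its interval. Mesothelial-gated and EC-gated values rest on few cells and UMIs, and with 1 pooled library per condition the spread between mice is unknown.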
